A study of Rattus norvegicus with 12 samples.

Results

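The 10 genes described here, Dbp, Tef, Per1, Per2, Per3, Bmal1, Clock, Nr1d1, Nr1d2 and Cry1, make up the core of the circadian clock and its best known direct outputs. They were taken by symbol from the platform annotation, which gave 18 probe sets (groups of short probes that measure one transcript) assigned to one of these genes alone, 13 of 15866 on the Affymetrix rat array 230A and 5 of 15276 on its companion array 230B. All 10 genes had a probe set, out of 13810 named genes on both array types. RNA came from scrapings of the rat jejunal mucosa (the absorptive inner layer of the jejunum), in a low Fe and a high Fe group of 3 samples each. All samples carry a week number of 12, and the labels name iron deficiency and anemia as keywords for the 230A arrays. Each sample was hybridised to 1 array of each type, 12 arrays in all. Strain, sex, diet composition and time of day at collection are not given in the sources used here. Whether each sample is a separate animal is not stated either, and a p-value here reflects sample-to-sample spread alone, part of which may be technical.

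The clock is a feedback loop of transcription that runs in nearly every mammalian cell. BMAL1 and CLOCK bind E-boxes as a pair and switch on the Per, Cry, Nr1d1, Nr1d2 and Dbp genes. PER and CRY proteins then inhibit that pair, and the nuclear receptors NR1D1 and NR1D2 (REV-ERB alpha and beta) repress Bmal1 through ROR elements, so that Bmal1 transcript peaks when Dbp and Nr1d1 are low. DBP and TEF are related activators that bind D-boxes, which Per genes also carry. In the gut the phase of this clock follows mealtimes, and a single tissue sample shows only the point of the cycle at which it was taken. The comparison of low Fe with high Fe samples asks whether the samples were alike in that point of the cycle.

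RefSeq promoter windows, from 250 bases before to 50 bases after the annotated start on the rat assembly GRCr8, were found for 9 of the 10 genes, in 11 windows. They were searched on both strands for the E-box CACGTG, its variant CACGTT, the D-box TTATGTAA and the ROR element core TAGGTCA, which do not overlap each other in these windows. The E-box was in 2 of the 11 windows (6.42% of 33469 promoters of the same length hold it), its variant also in 2 (4.83%), and the D-box and the ROR element core in 1 each (0.893% and 2.63%). Shown here are the windows of 4 genes that each hold an element of the loop, with the matches in capitals. Counted from the annotated start, the E-box lies at -198 in Tef and at -191 for one of 2 starts of Nr1d1, and the ROR element core at -16 in Bmal1. Per2 holds the D-box at -192 and the E-box variant at -62.
Bmal1 promoter, chr1:176766078-176766377, plus strand: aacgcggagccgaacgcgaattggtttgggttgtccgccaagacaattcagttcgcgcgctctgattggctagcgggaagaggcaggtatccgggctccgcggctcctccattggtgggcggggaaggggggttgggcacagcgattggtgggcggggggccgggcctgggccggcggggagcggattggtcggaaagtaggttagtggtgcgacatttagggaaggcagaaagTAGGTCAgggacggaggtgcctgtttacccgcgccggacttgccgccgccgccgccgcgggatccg
Per2 promoter, chr9:99496944-99497243, minus strand: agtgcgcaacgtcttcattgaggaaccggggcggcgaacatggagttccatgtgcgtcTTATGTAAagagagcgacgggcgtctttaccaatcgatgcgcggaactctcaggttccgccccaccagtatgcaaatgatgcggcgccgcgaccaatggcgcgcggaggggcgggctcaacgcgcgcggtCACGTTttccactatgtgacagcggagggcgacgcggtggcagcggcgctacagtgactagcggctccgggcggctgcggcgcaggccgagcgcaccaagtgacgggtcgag
Tef promoter, chr7:115206577-115206876, plus strand: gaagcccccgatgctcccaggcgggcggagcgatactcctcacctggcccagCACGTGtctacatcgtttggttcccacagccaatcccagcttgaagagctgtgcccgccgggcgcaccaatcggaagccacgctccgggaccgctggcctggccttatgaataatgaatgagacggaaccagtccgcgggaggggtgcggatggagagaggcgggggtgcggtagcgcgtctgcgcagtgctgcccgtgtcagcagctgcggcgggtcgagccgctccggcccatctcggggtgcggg
Nr1d1 promoter at this start, chr10:84229405-84229704, minus strand: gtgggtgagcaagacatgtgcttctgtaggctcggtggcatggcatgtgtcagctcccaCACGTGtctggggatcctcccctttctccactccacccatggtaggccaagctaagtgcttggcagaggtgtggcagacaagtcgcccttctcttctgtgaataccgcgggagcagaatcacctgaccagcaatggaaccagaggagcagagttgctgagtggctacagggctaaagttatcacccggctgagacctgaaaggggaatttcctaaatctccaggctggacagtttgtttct
A match is a description of these letters and does not show that a factor binds there.

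None of the clock genes passed the test between low Fe and high Fe mucosa. Probe sets were tested together with all others of their array type in limma on log2(signal + 16), after the 40% with the lowest mean were left out, at an adjusted p of 0.05. On 230A, 0 of 8 tested clock probe sets were called, where 0.0945% of all 9519 tested probe sets were (0.084% higher and 0.0105% lower in low Fe). On 230B, 0 of 5 were called, where 0% of 9165 were. At an unadjusted p under 0.05 there were also 0 clock probe sets on either type, against 6.68% and 10.2% of all tested. The 13 tested probe sets covered 9 genes, and the only probe set of Per1 was among the 5 too dim for the test. Their log2 differences, low Fe minus high Fe, lay between -0.43 and 0.70. The 0.70 is from a Per2 probe set on 230B that passed the filter through low Fe 2 and 3 alone, and the next highest was 0.44. A difference that does not pass is not shown to be absent. The median over the tested clock probe sets was 0.04 on 230A (4 above 0 and 4 below) and 0.41 on 230B (5 above 0), beside -0.01 and -0.04 over all tested probe sets. Above 0 were 4464 of all 9519 tested on 230A and 4127 of all 9165 on 230B. The 230B clock median and count include that Per2 probe set and both Tef probe sets, so no shift is read from them. In such scrapings, fewer cells of a type and less RNA per cell cannot be told apart.

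**Figure D1:**
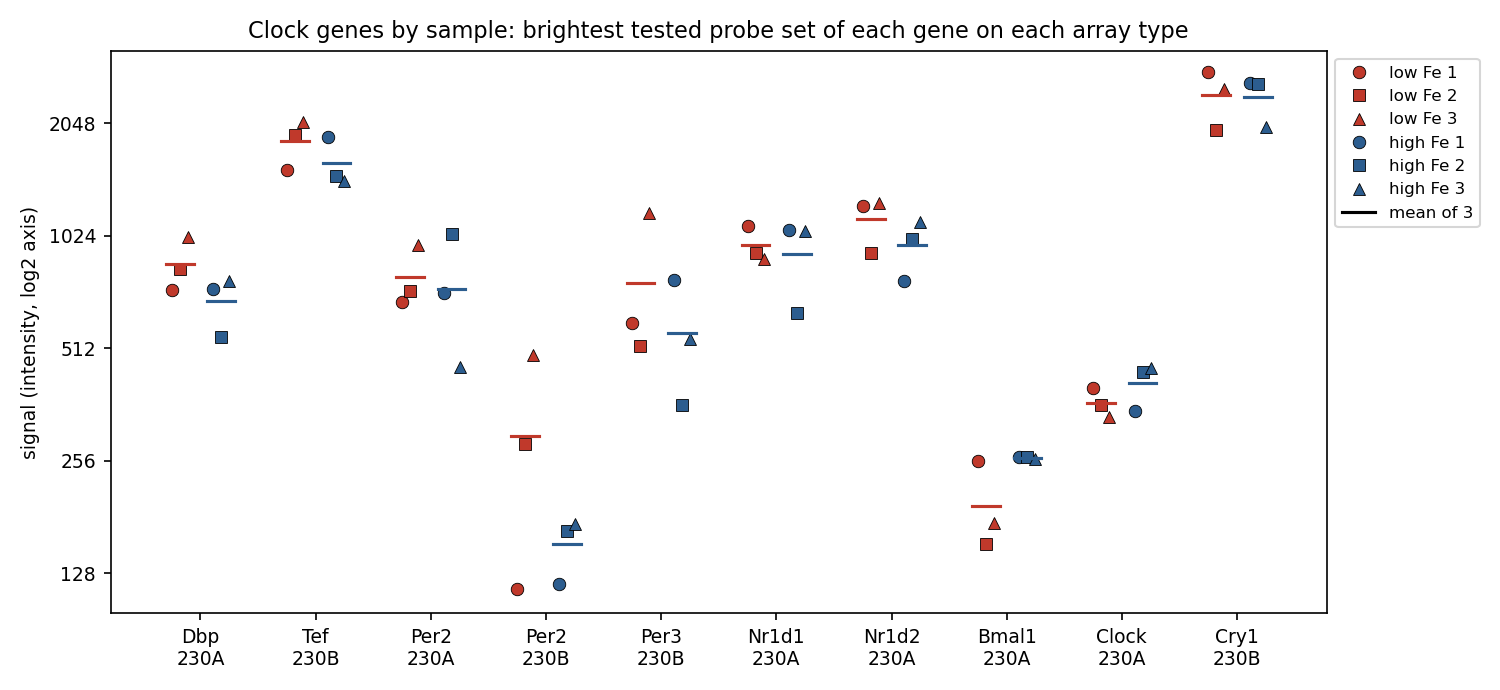
Signal of the brightest tested probe set of each clock gene on each array type (y axis, intensity on a log2 axis), with 1 point per sample and a line at the mean of 3. Low Fe samples stand left of high Fe samples, and levels of different probe sets are not comparable. The groups are apart only for Bmal1, where the 3 high Fe samples sit between 258.3 and 262.2 and the low Fe samples between 153.6 and 254.9.

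Dbp, an activator under direct control of BMAL1 and CLOCK and one of the transcripts with the widest daily swing, had signals of 732.9, 833.2 and 1016.7 in low Fe samples 1 to 3, against 735.8, 548.5 and 772.8 in high Fe samples 1 to 3. Low Fe 3 was the highest and high Fe 2 the lowest, and the groups overlapped. The means were 861 ± 144 in low Fe and 686 ± 120 in high Fe (SD, n = 3 each), a fold of 1.25 with a 95% interval from 0.944 to 1.66 (limma adjusted p = 0.778). Without high Fe 2 the log2 difference of 0.32 became 0.17.

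Tef, the related D-box activator, was measured on 230B by 2 probe sets. The brighter had 1532.3, 1902.8 and 2065 in low Fe samples 1 to 3, against 1875.4, 1482.5 and 1434.6 in high Fe samples 1 to 3. Low Fe 3 was again the highest, and the groups overlapped, with a fold of 1.15 (95% interval 0.853 to 1.54, limma adjusted p = 0.698). The dimmer had 277.8, 342.1 and 368.6 in low Fe, against 250.5, 282.8 and 186 in high Fe. Here only low Fe 1 and high Fe 2 crossed, and the log2 difference was 0.44 ± 0.26 (SE, limma adjusted p = 0.565). The 230A probe set of Tef stayed between 23.5 and 77.5, under the filter boundary of 106, and was not tested.

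The Period genes code for inhibitors of BMAL1 and CLOCK. Per2, on 230A, had 680.6, 728.3 and 966.2 in low Fe samples 1 to 3, against 720.6, 1035.7 and 454.7 in high Fe samples 1 to 3. Both the highest and the lowest value were in the high Fe group, and the log2 difference was 0.16 ± 0.27 (SE, limma adjusted p = 0.916). It was 0.44 without high Fe 2 and -0.14 without high Fe 3. The dimmer Per2 probe set on 230B had 115.8, 284.1 and 491.2 in low Fe, against 119.7, 166.2 and 172.7 in high Fe. It placed the samples in another order, with low Fe 3 the highest and low Fe 1 the lowest. Only low Fe 2 and 3 exceeded the filter boundary of 182.9, so this probe set entered the test through low Fe samples alone. Without low Fe 3 it was too dim for the test. Its mean was 297 ± 188 in low Fe and 153 ± 28.9 in high Fe (SD, n = 3 each), a log2 difference of 0.70 with a 95% interval from -0.43 to 1.83 (limma adjusted p = 0.620), and of 1.22 without low Fe 1.

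Per3, on 230B, had 596.3, 519.8 and 1179.4 in low Fe samples 1 to 3, against 779.7, 361.4 and 542.5 in high Fe samples 1 to 3. Low Fe 3 stood above all others and high Fe 2 below them. The fold was 1.33 (95% interval 0.751 to 2.35, limma adjusted p = 0.682), and without low Fe 3 the log2 difference of 0.41 became 0.05. The 230A probe set of Per3 lay between 3.2 and 25.5 and was not tested. Per1, which also responds quickly to glucocorticoids and growth signals, was dim, with 40.1, 42 and 145 in low Fe samples 1 to 3, against 185.6, 33.2 and 34.9 in high Fe samples 1 to 3. Only low Fe 3 and high Fe 1 exceeded the boundary of 106, so this array gives little on Per1.

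Cry1, the cryptochrome that carries most of the repression late in the cycle, had 2805.1, 1961.5 and 2528.9 on 230B in low Fe samples 1 to 3, against 2630.1, 2614.1 and 1997.2 in high Fe samples 1 to 3. The 2 groups spanned nearly the same range, with a fold of 1.00 (95% interval 0.738 to 1.37, limma adjusted p = 0.991). Its log2 difference ran from -0.12 to 0.15 when 1 sample was left out.

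Bmal1, the activator whose transcript cycles opposite to Dbp, was the clock gene whose groups did not overlap. It had 254.9, 153.6 and 173.9 in low Fe samples 1 to 3, against 261.3, 262.2 and 258.3 in high Fe samples 1 to 3. The high Fe values were nearly equal, low Fe 1 was just under them, and low Fe 2 and 3 were clearly lower. The means were 194 ± 53.6 in low Fe and 261 ± 2.04 in high Fe (SD, n = 3 each), a fold of 0.744 with a 95% interval from 0.547 to 1.01 (limma adjusted p = 0.750). Groups without overlap were found for 1 of 8 tested clock probe sets on 230A, where 11.8% of all tested probe sets were apart (5.61% higher and 6.18% lower in low Fe), and for 0 of 5 on 230B, where 17.4% were (7.11% higher and 10.3% lower). The log2 difference of -0.43 was -0.62 without low Fe 1 and -0.29 without low Fe 2.

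Clock, the partner of BMAL1, cycles little in most tissues. Its brightest probe set, on 230A, had 399.4, 360.9 and 335.4 in low Fe samples 1 to 3, against 347.9, 441 and 452.7 in high Fe samples 1 to 3. The groups overlapped, with a fold of 0.890 (95% interval 0.696 to 1.14, limma adjusted p = 0.857). With arrays scaled on the hybridization controls, where the median over all tested 230A probe sets was 0.34 in place of -0.01, the tested Clock probe sets were at 0.19 and 0.28, Bmal1 at -0.08 and Dbp at 0.69. A second probe set lay between 272.3 and 347.9 in all 6 samples (log2 difference -0.07 ± 0.16, SE), and the dimmest, between 80.8 and 133.8, was not tested.

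Nr1d1, the REV-ERB receptor that represses Bmal1, had 1086.1, 918.8 and 889.5 on 230A in low Fe samples 1 to 3, against 1060.4, 636.9 and 1054.1 in high Fe samples 1 to 3. The 5 samples other than high Fe 2 lay between 889.5 and 1086.1, and without high Fe 2 the log2 difference of 0.10 ± 0.21 (SE, limma adjusted p = 0.930) became -0.14. Nr1d2, the second REV-ERB receptor, had 1228.6, 917.9 and 1249.1 by its brightest probe set in low Fe samples 1 to 3, against 775.2, 1004.6 and 1114.9 in high Fe samples 1 to 3. The groups overlapped, with a fold of 1.17 (95% interval 0.882 to 1.56, limma adjusted p = 0.829). A less bright Nr1d2 probe set gave a log2 difference of -0.03 ± 0.20 (SE), and the dimmest lay between 18.8 and 101.5 and was not tested.

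**Figure D2:**
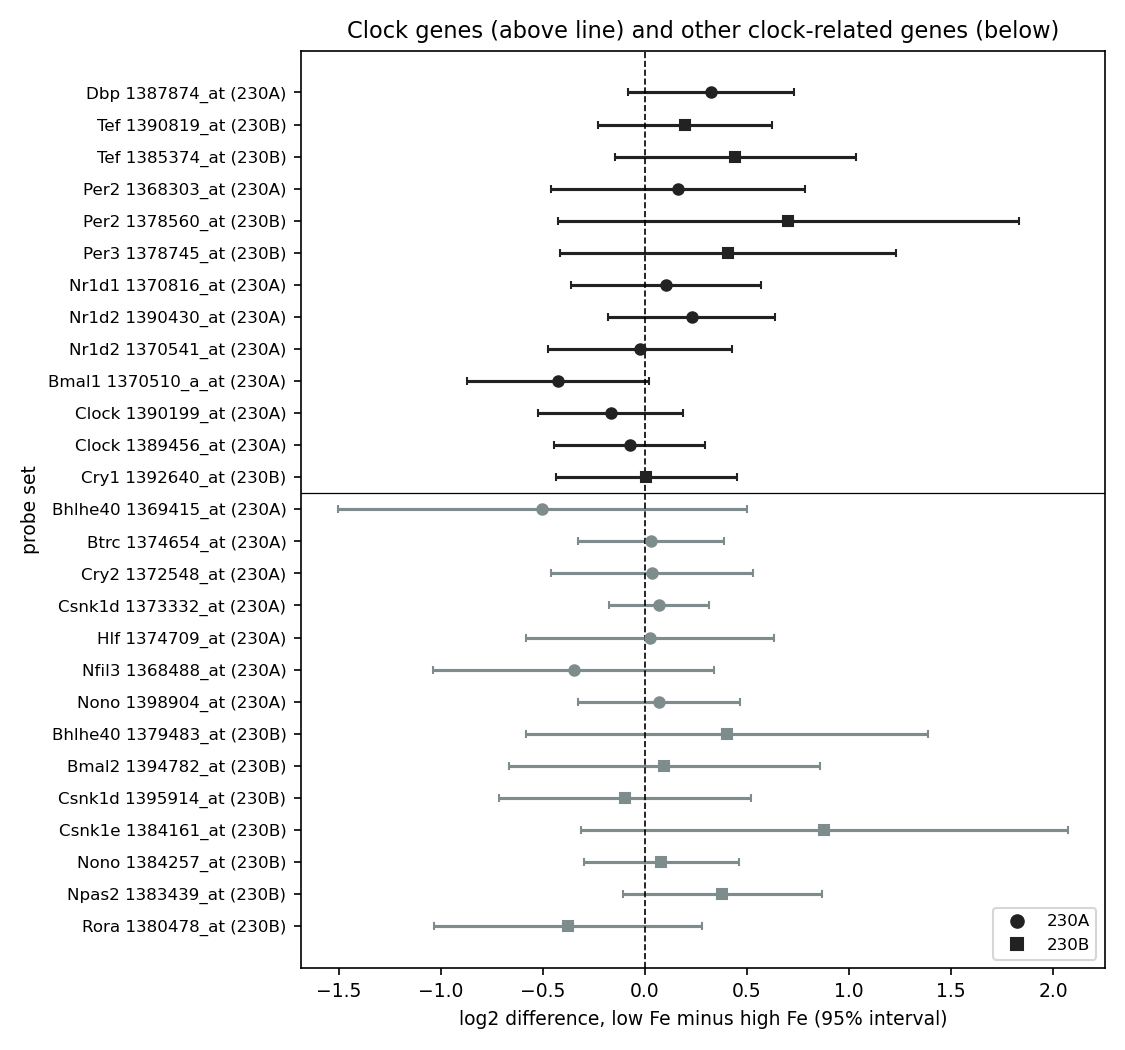
Log2 difference, low Fe minus high Fe, with its 95% interval from limma (x axis), for each tested clock probe set (above the line) and the brightest tested probe set of other clock-related genes on each array type (below). Every interval includes 0, and the clock estimates run from -0.43 for Bmal1 to 0.70 for Per2 on 230B. That Per2 probe set passed the filter through low Fe 2 and 3 alone.

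The spread between samples was set beside that of all tested probe sets. On 230A the highest sample exceeded the lowest 1.62-fold at the median of the 8 tested clock probe sets and 1.48-fold at the median of all 9519, on the signal + 16 scale. On 230B the medians were 1.90-fold for the 5 clock probe sets and 1.78-fold for all 9165. Clock, Cry1 and the brighter Tef probe set spread least, with 1.33-fold and 1.26-fold for the 2 tested Clock probe sets and 1.43-fold for both others. Bmal1 spread 1.64-fold, Nr1d1 1.69-fold and Dbp 1.83-fold, at percentiles 68.8, 73.0 and 81.2 of all tested probe sets on 230A. The widest were Per2 on 230A (2.23-fold, percentile 91.5), Per3 on 230B (3.17-fold, percentile 88.7) and Per2 on 230B (3.85-fold, percentile 92.4). In the last, only low Fe 2 and 3 exceeded the filter boundary of 182.9.

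**Figure D3:**
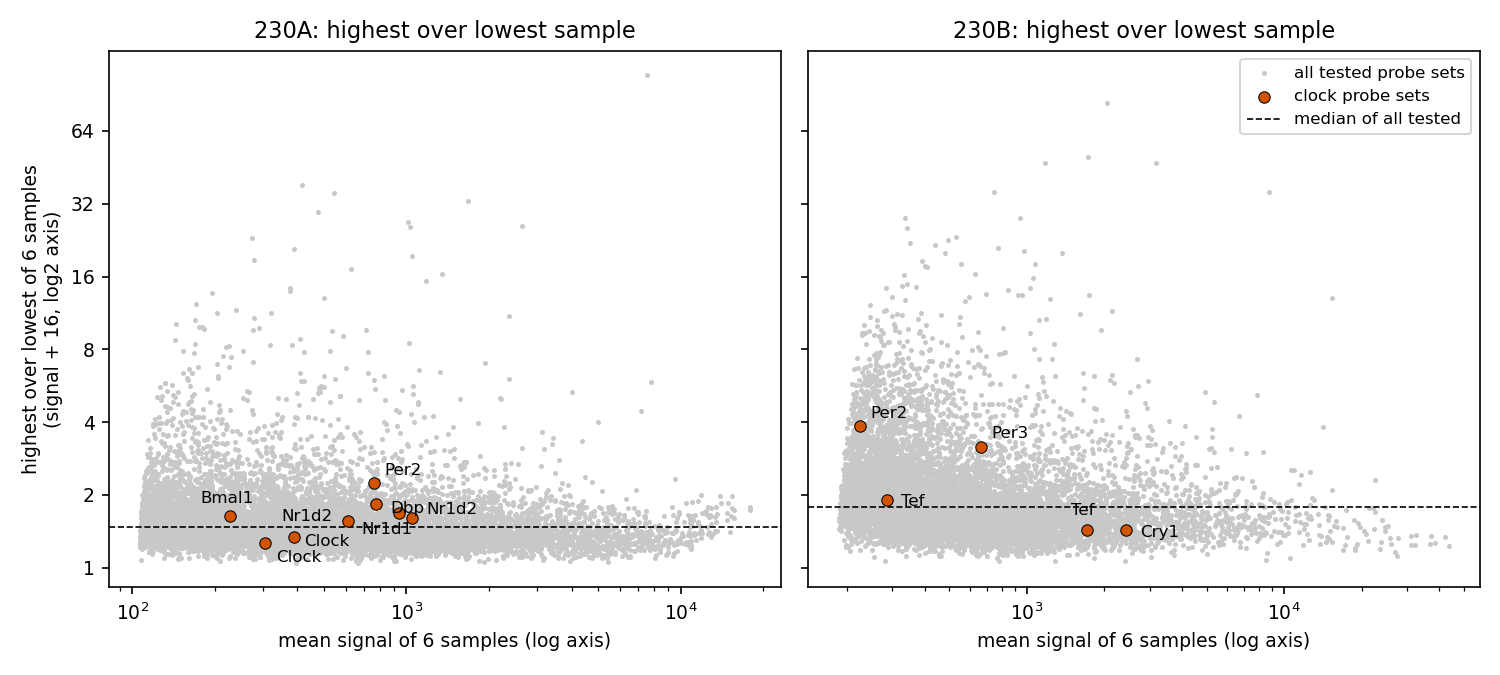
Highest over lowest of the 6 samples (y axis, signal + 16, log2 axis) against the mean signal (x axis, log axis) for all tested probe sets (grey) and the clock probe sets (orange) on 230A and 230B. The dashed line is the median of all tested probe sets, 1.48 on 230A and 1.78 on 230B, and the Per genes lie farthest above it.

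A pair of samples, picked out after their values were seen, stood at opposite ends. Low Fe 3 had the highest value of 6 of the 13 tested clock probe sets: relative to the mean of the 6 samples it was at 0.41 (log2) for Dbp, 0.91 for Per3 and 0.28 and 0.39 for the brighter and dimmer Tef probe sets, and at -0.33 for Bmal1 and -0.20 and -0.14 for the tested Clock probe sets. High Fe 2 was at -0.46 for Dbp, -0.75 for Per3, -0.19 for the brighter Tef probe set and -0.53 for Nr1d1, and at 0.22 for Bmal1 and 0.18 for the brighter Clock probe set, while the dimmer Tef probe set was at 0.02 and the second Clock probe set at -0.12. Dbp and Per3 were thus on the other side of their means from Bmal1 in both samples, but not every probe set was. Bmal1 itself did not set these samples apart. It was lowest in low Fe 2, at -0.49, where Per3 was also below its mean, at -0.25. Its 0.22 in high Fe 2 was close to 0.22 in high Fe 1, 0.20 in high Fe 3 and 0.18 in low Fe 1. The other 4 samples stayed between -0.25 and 0.32 for Dbp, Per3 and Nr1d1. Nr1d1 in low Fe 3 was near its mean, at -0.06, and Per2 on 230A was above its mean in both samples, at 0.38 and 0.48. High Fe 3 held the highest value of 3 tested clock probe sets and the lowest of 3.

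**Figure D4:**
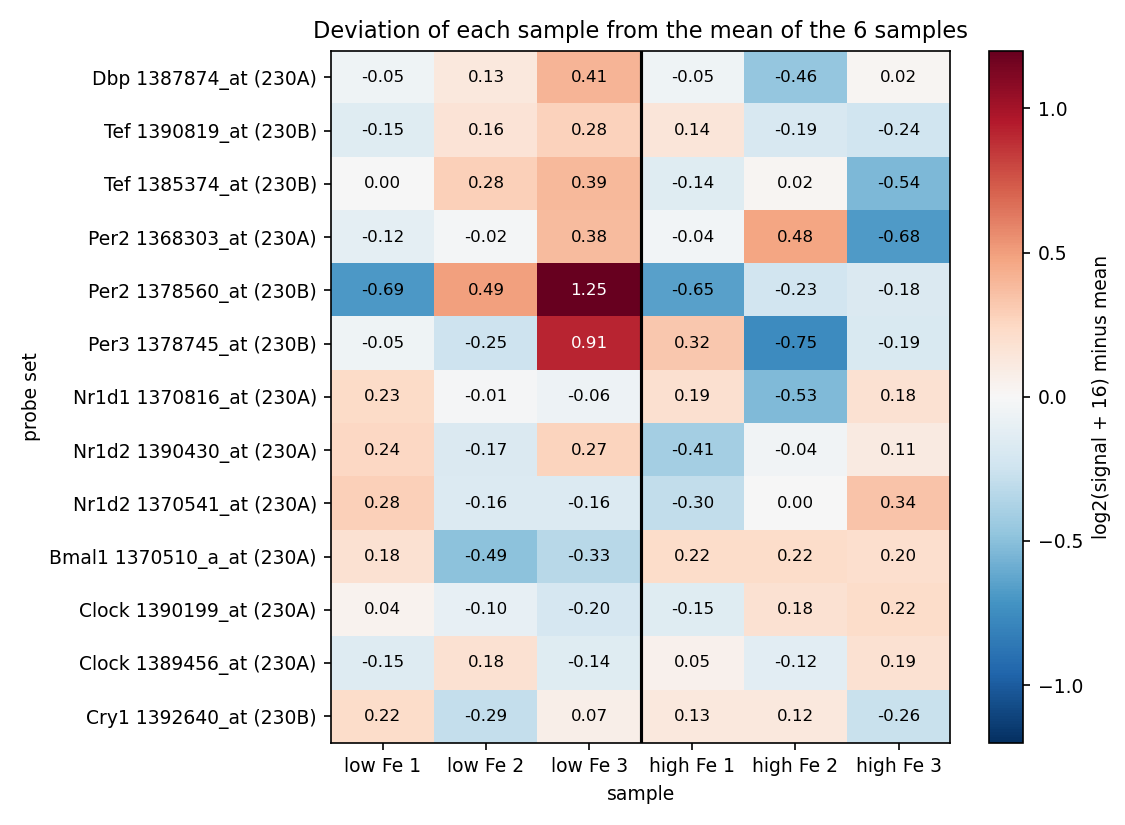
Deviation of each sample from the mean of the 6 samples (colour and printed value, log2(signal + 16)) for the 13 tested clock probe sets (rows), with low Fe samples left of the line and high Fe samples right of it. Low Fe 3 holds the highest value in 6 rows, and high Fe 2 the lowest for Dbp, Nr1d1 and Per3.

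Both samples also stood apart in array controls. The 5'/3' signal ratio of beta-actin, a sign of RNA and target integrity, was 0.054 in low Fe 3 on 230A, against 0.591 to 0.836 in the other samples. The hybridization controls, which are added in equal amount to every array, averaged 10.26 (log2) in high Fe 2 on 230A, against 9.23 to 9.52 in the others. By the same ratio of GAPDH the samples formed a lower set of low Fe 2, low Fe 3 and high Fe 1 (0.794 to 0.811 on 230A) and a higher set of the other 3 (0.876 to 0.922). On 230B these sets hardly separated, at 0.821 to 0.873 and 0.877 to 0.939, with low Fe 3 next to low Fe 1, and the sets of 230A were used for both array types. Of the 13 tested clock probe sets, 3 separated these sets without overlap, the brighter Clock, a less bright Nr1d2 and the brighter Tef probe set. That was 2 of 8 on 230A and 1 of 5 on 230B, where 21.3% and 17.2% of all tested probe sets did. The part of RNA quality in the clock values was not tested.

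Within these GAPDH sets, each with 1 sample of a group against 2 of the other and no test, the log2 difference of Dbp was 0.32 in the lower and 0.17 in the higher set. That of Bmal1 was -0.63 in the lower and -0.03 in the higher set. Nr1d1 gave -0.23 and 0.40, Per3 0.01 and 0.42, and Per2 on 230B 1.52 and -0.49. These values rest on single samples, and for Bmal1 they restate that low Fe 2 and 3 were low and low Fe 1 was not.

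Likeness to Dbp was described by Pearson's r over the 6 samples, which share the group contrast, the array scaling and the RNA quality sets, and 230B arrays were matched by sample label. Per3 had r = 0.84 (percentile 96.8 of all tested 230B probe sets), the brighter and dimmer Tef probe sets 0.71 and 0.38, and Per2 on 230B 0.70. Bmal1 had r = -0.69 and the brighter Clock probe set -0.68 (percentiles 11.1 and 12.0 on 230A), but the second tested Clock probe set had 0.14. Nr1d1 had 0.50, the brighter and less bright Nr1d2 probe sets 0.31 and -0.21, Per2 on 230A -0.13 and Cry1 -0.28. Closer than any clock gene were Mapk13, Ctsf, Rap1gap, Rpia, F8a1, Map2k3, Rab35 and Sft2d1 on 230A (r from 0.98 to 0.99) and Usp14, Gatc, Vcp, Pak4, Tmem51, Stard13, Aimp1 and Sem1 on 230B (0.96 to 0.99). The most opposite were Nae1, Arrdc3, Clpx, Sf3b1, Zdhhc16, Tsc22d1, LOC100909729 and Pogz on 230A (-0.99 to -0.97) and Lrrc1, Map3k6, Hycc2, Nxpe3, Limch1, Tmem132a, Nectin3 and Gpld1 on 230B (-0.995 to -0.964). Over these 6 samples, 135 other probe sets of 9519 tested on 230A and 95 of 9165 on 230B had an r of at least 0.9. No other clock gene reached that value.

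Of 18 further clock genes (loop members, kinases, ligases and related factors), 7 were tested on each array type, and 0 passed in either direction. Their median log2 difference was 0.03 on 230A (5 above 0, 2 below) and 0.09 on 230B (5 above 0, 2 below). Npas2, a relative of Clock that can replace it as the partner of BMAL1, had 7266.3, 6769.6 and 6395.9 in low Fe samples 1 to 3, against 7030.3, 5199.3 and 3911.3 in high Fe samples 1 to 3. The groups overlapped (log2 difference 0.38 ± 0.21, SE, limma adjusted p = 0.555), and the value was 0.17 without high Fe 3. Csnk1e, a kinase of PER proteins, averaged 614 ± 102 in low Fe and 397 ± 251 in high Fe by its brightest 230B probe set (SD, n = 3 each). The log2 difference of 0.88 was 0.17 without high Fe 2. The second tested Csnk1e probe set averaged 425.5 in low Fe and 417.2 in high Fe, with a log2 difference of 0.03 ± 0.19 (SE). Rora, the activator that competes with the REV-ERB receptors at ROR elements, gave -0.38 ± 0.29 (SE), and Nfil3, the repressor of D-boxes, -0.35 ± 0.30.

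Of 8 genes known to cycle in many rodent tissues, 6 were tested on 230A, and 0 passed (median log2 difference 0.17, 5 above 0 and 1 below). The smallest p was that of Alas1, the first enzyme of heme synthesis, which averaged 2660 ± 282 in low Fe and 1737 ± 119 in high Fe (SD, n = 3 each). Its groups did not overlap, and its log2 difference was 0.61 ± 0.13 (SE, limma adjusted p = 0.313). The cell cycle inhibitor Cdkn1a gave 0.27 (0.03 without high Fe 2), the P450 reductase Por 0.19 (0.04 without high Fe 2) and the repressor Klf10 -0.15, the last without overlap of its groups. Groups were thus apart for 1 of the 6 higher and 1 lower in low Fe, beside 5.61% and 6.18% of all tested 230A probe sets. The values and counts of this list are of the brightest probe set of each gene. The less bright tested probe sets on 230A gave -0.52 ± 0.57 (SE) for Cdkn1a, -0.29 ± 0.26 for Por and 0.48 ± 0.23 for Usp2, also of this list. The brightest Usp2 probe set gave 0.15 ± 0.24 (SE). Of 9 transport and digestion genes known for daily rhythms in rodent small intestine, the 6 tested on 230A all lay below 0 and 0 passed (median -0.16). Of all 9519 tested 230A probe sets, 5055 lay below 0. The fructose transporter Slc2a5 was at -0.68 ± 0.25 (SE, limma adjusted p = 0.691) and the glucose transporter Slc2a2 at -0.21. Apob and Apoa4 were both at -0.16. Without high Fe 2, the highest sample for these 4, Slc2a5 was at -0.44, Slc2a2 at -0.10, Apob at -0.0019 and Apoa4 at 0.0065.

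The labelled tissue was checked against marker genes on 230A, whose median signals ran from 154 to 176 by array. The 6 enterocyte markers summed to 63509 to 82973 in low Fe and 59926 to 101111 in high Fe, and 7 pancreas and liver markers to 596.2 to 752.5 and 610.1 to 665.7. The 7 smooth muscle markers summed to 4438 to 5822 in low Fe and 3405 to 4092 in high Fe, without overlap. Mylk made up most of each sum, averaging 3711 in low Fe and 2754 in high Fe. Of the 5 tested muscle markers, 3 had groups apart and higher in low Fe, as had 5.61% of all tested 230A probe sets. The groups of Acta2 and Myh11 overlapped. On 230B the sums of 4 smooth muscle markers were 882.1 to 1444 and 918.9 to 1346, with overlap. The 7 leukocyte markers summed to 2777 to 3462 in low Fe and 1824 to 3311 in high Fe. Most of these sums was Lyz2, which averaged 2356 in low Fe and 1814 in high Fe (log2 difference 0.43). Of the 5 tested leukocyte markers, 1 was above 0 and 4 below (median -0.08), with Cd8a at -0.66. The 7 goblet, Paneth and enteroendocrine markers summed to 28496 to 31517 in low Fe and 26163 to 37911 in high Fe. None of the tested markers passed, and the part of muscle content in the clock values was not tested.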

How the data were processed

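RNA from 6 jejunal scrapings was measured on 12 arrays, and samples were grouped by the labels. The deposited intensity values are linear signals of 1 value per probe set, already scaled by the authors to a 2% trimmed mean of 500.1 on every 230A and 500.2 on every 230B array, as the values show; the software and its settings are not given in the sources used here. Signals were turned into log2(signal + 16), probe sets in the dimmest 40% by mean (under 106 on 230A and 182.9 on 230B) were dropped, and the groups were contrasted as low Fe minus high Fe by limma 3.58.1 (R 4.3.3; lmFit and eBayes with trend), with Benjamini-Hochberg adjustment per array type. Only 3 arrays a group limit the precision. The procedure was tested on simulated data, with planted differences larger than any clock difference here. That test does not show how often differences of the size seen in clock genes would be called. Probe sets were named from the platform annotation: 12783 on 230A and 7564 on 230B have 1 symbol, 312 and 100 several, 2771 and 7612 none. All clock probe sets are described and the brightest stands for its gene. Of other lists, up to 4 members with the smallest unadjusted p are named, and the 8 named genes most like and most unlike Dbp on each type. The clock genes and the lists were chosen with earlier results of these data known. Over 100 probe sets present on both types, each of the 6 samples matched best the array of its own label. Alternatives changed the pseudocount, filter, scaling, model and threshold, added blocks and left out samples. Python 3.11.15 and matplotlib 3.10.9 were used for promoters and figures.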

Additional observations from a re-analysis of the deposited data

How the results depend on the processing

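No clock probe set passed the threshold under any alternative tried, and the smallest clock adjusted p in limma was 0.250 (without low Fe 1). In that setting 2 of 8 on 230A and 1 of 5 on 230B had an unadjusted p under 0.05, against 0 and 0 with all samples. So did 1194 of all 9519 tested probe sets on 230A and 1041 of 9165 on 230B, against 636 and 932 with all samples. The count of all called probe sets on 230A, 9, was 33 with hybridization control scaling, 4 with the replicate block, 14 with the GAPDH ratio set as a block, 15 at a threshold of 0.1, and 5 to 21 when 1 sample was left out. On 230B it was 0 and became 4 with hybridization control scaling, which moved the median of all to 0.34 on 230A and 0.14 on 230B. The labels do not say that equal numbers pair samples, so the numbers were not taken as pairs. Same-numbered samples deviated apart (r from -0.36 to -0.10), which with so few samples cannot settle whether they are pairs. The replicate block called no clock gene. The less bright Nr1d2 probe set on 230A, at -0.03, was at 0.042 (common median), 0.34 (hybridization controls), 0.13 (GAPDH block) and, with 1 sample left out, -0.18 to 0.14. Hybridization controls turned Clock to 0.19 and 0.28, and of genes whose alternatives were added after seeing the data, Klf10 to 0.22, Slc2a2 to 0.16, Apob to 0.22 and Apoa4 to 0.21. Leaving out 1 sample turned Nr1d1 (-0.14 to 0.23), Per2 on 230A (-0.14 to 0.44), the second Clock probe set (-0.18 to 0.00062), Cry1 (-0.12 to 0.15) and Apoa4 (-0.35 to 0.0065). Apoa4 was 0.0049 with the GAPDH block, Cry1 -0.11 with quantile normalization and Nr1d2 -0.10 as the mean of all its probe sets. The causes were not tested.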

Other observations

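Among genes that respond to glucocorticoids, stimulation or feeding, signals known to act on peripheral clocks, 0 were called in limma. The glucocorticoid-induced kinase Sgk1 averaged 1177 ± 316 in low Fe and 3248 ± 1295 in high Fe (SD, n = 3 each; log2 difference -1.39, limma adjusted p = 0.462), and the 7 genes tested on 230A had a median of -0.14, with 3 above 0 and 4 below. Tsc22d3 gave -0.52, Fkbp5 -0.78 and the phosphatase Dusp1 0.61 by their brightest 230A probe sets, and the rest of the tested list, named after its values were seen, Klf9 -0.14, Ddit4 0.25 and Errfi1 0.10. Groups did not overlap for Sgk1, Tsc22d3, Fkbp5 and Dusp1, where 11.8% of all tested 230A probe sets were apart. The dimmer Dusp1 probe set gave -0.67 and Fkbp5 on 230B -0.86, both with overlap. Of 9 immediate early genes, 7 were above 0 (median 0.31), beside 4464 of all 9519 tested 230A probe sets. The groups of 4 did not overlap and were higher in low Fe, as for 5.61% of all tested: Fosb at 1.33, Egr1 at 0.64, Ier3 at 0.45 and Fos at 0.33. Fosb reached 1.65 and an adjusted p of 0.00162 in limma with hybridization control scaling. That scaling moved the median of all tested 230A probe sets from -0.01 to 0.34 and the count called from 9 to 33. The Fosb signals of high Fe 1 and 2, at 99.3 and 79.7, were under the filter boundary of 106. Pdk4, a kinase that spares glucose in fasting, averaged 1446 ± 350 in low Fe and 3443 ± 1185 in high Fe on 230B (SD, n = 3 each; log2 difference -1.21, limma adjusted p = 0.4004) and gave -0.83 on 230A. Srebf1, a regulator of lipid synthesis, gave -0.57 and Angptl4, an inhibitor of lipoprotein lipase, -0.55. The 7 fasting and feeding genes tested on 230A had a median of -0.29, with 2 above 0 and 5 below.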
